A study of Mus musculus with 56 samples.

Results

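Livers of day-fed mice were compared at the last 2 sampling times of the night, ZT20 and ZT24, when the animals under daytime-restricted feeding (DRF) had been without food since the day and food was about to return. ZT is zeitgeber time, in hours after lights on. The comparison took all 8 libraries that the labels place there, 4 at DRF ZT20 and 4 at DRF ZT24, out of 56 in the series. All animals were female C57BL/6J mice, aged 9 weeks, kept under 12 h of light and 12 h of darkness, and the DRF animals had spent 7 days on the regimen. The other animals received nighttime-restricted feeding (NRF), the reference regimen, also for 7 days. No animal carried an engineered allele or received a drug, and each library came from a different animal. The labels name the part of the day with food but not the exact hours, so the hours of fasting at each time were taken only as falling in the dark phase. The design gave 3 questions: which genes differed between ZT20 and ZT24 under DRF, whether the change differed from that of NRF livers 12 h away on the clock (ZT8 to ZT12, the last hours before their food), and whether it differed from that of NRF livers over the same hours (ZT20 to ZT24).

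Animals fed at a fixed time of day become active before the meal, a behavior called food anticipation. The liver holds a circadian clock in which the activators CLOCK and BMAL1 (Arntl) drive the Per and Cry repressors and the Rev-erb receptors (Nr1d1, Nr1d2) through E-box sequences, while the PAR bZIP factors (Dbp, Tef, Hlf) act through D-box sequences. Meal time is known to set the phase of this clock in the liver. Fasting liver burns fatty acids and makes glucose and ketone bodies, and it turns to glycogen and lipid synthesis when food arrives.

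Levels are given as scaled counts, which are counts rebuilt from the deposited values and put on 1 scale per library. They are not divided by gene length, so levels are compared between samples and not between genes. Differences are given as log2(scaled count + 1), with limma's standard error (SE) and its p-value adjusted over all 25253 genes tested. A gene was called when its adjusted p was under 0.05. The scaled counts of a library summed to between 839064 and 1043196. Pearson's r between replicates, across genes, was 0.992 to 0.993 within both DRF ZT20 and DRF ZT24. An index of how far long genes stood above short ones in a library was 0.174 ± 0.0605 (SD, n = 4) at ZT24 and 0.153 ± 0.0622 (SD, n = 4) at ZT20. The difference missed the threshold (two-sided exact permutation test, p = 0.629, where the smallest p possible was 0.0286). The index was lower in the DRF ZT0 livers (-0.197 to -0.0641) and at NRF ZT8 (-0.188 to -0.0589), and was -0.0997 to 0.120 at NRF ZT12. With a length correction, 845 genes differed from the NRF change from ZT8 to ZT12, against 976 without it, and 701 were in both. The correction was not run with the ZT0 livers in place of the ZT24 livers. The labelled tissue was checked on hepatocyte markers, of which 8 of 10 were tested, 0 were at 0 in any library and 0 changed. In whole liver, fewer cells of a type and less RNA per cell cannot be told apart.

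Over these 4 h fewer genes were called higher than lower in the main fit, and Per3, Per2 and Dbp of the clock were among the 10 largest rises. Of the 25253 genes tested, 444 were called, which is 1.76% of them. At ZT24, 157 genes were higher (0.622% of all tested) and 287 were lower (1.14%). Their median log2 differences were 0.45 and -0.37. The balance moved with the processing, to 163 higher and 195 lower after the length correction and to 55 and 49 on the deposited values. It was 15 higher and 8 lower with the 8 libraries alone, and 86 and 72 without replicate 2 of both times. A further measure was whether all 4 libraries of one time lay above all 4 of the other. That held for 143 of the 157 higher genes and 253 of the 287 lower genes. Over all genes, 5.53% had ZT24 fully above ZT20 and 5.36% fully below. The measure uses the same 8 libraries as the calls, so called genes tend to meet it by selection and it is no separate support. At an unadjusted p under 0.05 there were 3736 genes. The number called depended on single libraries. It was 186 without DRF ZT20 replicate 3, 215 without DRF ZT24 replicate 2, 240 without DRF ZT20 replicate 1 and 275 without DRF ZT20 replicate 2. With the spread estimated from the 8 libraries alone it was 23, against 444 with the spread estimated from all 56. Of the 31 called genes named by rule, 30 lost the call in that fit, Ccdc57 being the exception, and 11 lost it on the deposited values (Usp2, Per2, Dsg1c, Dbp, Cyp2b10, Map1lc3b, Abcb11, Cbs, Glud1, Calr and Nampt).

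Among genes with a mean of at least 5 scaled counts and no overlap between the times, the largest rise was that of Per3, a repressor of the clock. Per3 was at 13.9, 10.5, 14.5 and 23.0 scaled counts in the 4 livers at ZT20 and at 36.3, 46.2, 36.0 and 39.8 at ZT24. Every ZT24 liver stood above every ZT20 liver, and the ratio of the means was 2.56 (log2 difference 1.35 ± 0.20 SE, adjusted p = 0.000166). Per2, its paralog, was at 10.3, 15.8, 17.2 and 21.9 at ZT20 and at 28.2, 35.4, 43.1 and 40.7 at ZT24. The groups again did not overlap, and the log2 difference was 1.16 ± 0.26 SE (adjusted p = 0.00936). Without DRF ZT20 replicate 1 the adjusted p of Per2 was 0.0691.

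**Figure D1:**
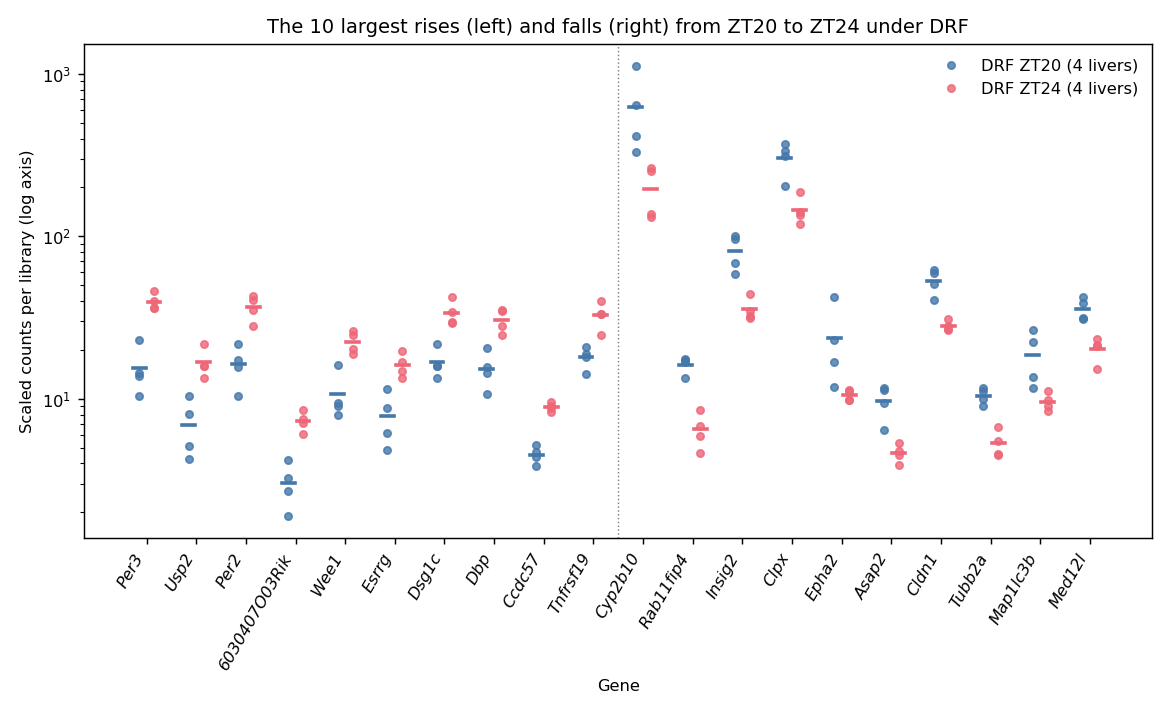
Scaled counts (log axis) of the 20 genes with the largest changes that met the naming rule, in each of the 4 livers at DRF ZT20 (blue) and the 4 at DRF ZT24 (red), with bars at the group means. Rises stand left of the dotted line and falls right of it, and no gene shown has overlapping groups; Epha2 and Cyp2b10 spread most at ZT20, from 11.9 to 42.4 and from 332 to 1111.

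Dbp, the clock output factor that binds D-boxes, was at 10.7, 14.3, 15.8 and 20.5 at ZT20 and at 34.95, 24.6, 34.7 and 28.1 at ZT24. All ZT24 livers were higher (log2 difference 0.97 ± 0.21 SE, adjusted p = 0.00754). The call was lost in 6 of 22 alternatives. The adjusted p was 0.0589 without DRF ZT20 replicate 1, 0.0591 with a pseudocount of 0.1, 0.0900 with the 8 libraries alone, 0.145 and 0.0637 without replicate 1 or 3 of every group, and 0.471 on the deposited values, where the log2 difference was 0.32. Exons of the opposite strand, those of Sphk2, cover 18.01% of the exon length of Dbp. Sphk2 fell over the same hours, from 27.3 ± 7.37 to 17.8 ± 2.09 (SD, n = 4; log2 difference -0.56 ± 0.15 SE, adjusted p = 0.0374); whether counting used strand is not given in the sources used here. Hlf, the other PAR bZIP factor called, was at 26.3, 26.6, 29.6 and 30.2 at ZT20 and at 37.1, 56.8, 73.0 and 37.2 at ZT24. The groups did not overlap, though 2 of the ZT24 livers were only just above the highest ZT20 liver (log2 difference 0.78 ± 0.19 SE, adjusted p = 0.0184). The call of Hlf was lost in 4 of the 8 fits that left out 1 library, with adjusted p up to 0.0997 (without DRF ZT24 replicate 3; the others were DRF ZT20 replicates 1 and 2 and DRF ZT24 replicate 2). Ciart, a repressor of CLOCK and BMAL1, was low throughout, at 0.180 to 0.358 scaled counts at ZT20 and 0.749 to 1.62 at ZT24, and all ZT24 livers were higher (log2 difference 0.63 ± 0.11 SE, adjusted p = 0.00103).

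The promoters of the called clock genes are shown because the same clock acts on E-boxes and D-boxes. RefSeq windows of 300 bases (GRCm38.p6, 250 before and 50 after the start) were searched on both strands for the E-box CACGTG, the D-box TTATGTAA and its variant TTATGCAA, and the ROR element TAGGTCA. Windows were found for Per3, Ciart, Dbp and Hlf. Those of Per3 (chr4:151044616-151044915, minus strand) and Ciart (chr3:95882179-95882478, minus strand) held a match, and capitals mark the 2 D-boxes of Per3 and the 3 E-boxes of Ciart.
Per3: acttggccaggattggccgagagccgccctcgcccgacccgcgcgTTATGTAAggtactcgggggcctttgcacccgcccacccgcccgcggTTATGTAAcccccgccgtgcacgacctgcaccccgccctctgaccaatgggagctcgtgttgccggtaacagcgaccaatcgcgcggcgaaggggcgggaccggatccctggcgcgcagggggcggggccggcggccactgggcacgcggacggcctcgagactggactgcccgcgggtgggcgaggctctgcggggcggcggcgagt
Ciart: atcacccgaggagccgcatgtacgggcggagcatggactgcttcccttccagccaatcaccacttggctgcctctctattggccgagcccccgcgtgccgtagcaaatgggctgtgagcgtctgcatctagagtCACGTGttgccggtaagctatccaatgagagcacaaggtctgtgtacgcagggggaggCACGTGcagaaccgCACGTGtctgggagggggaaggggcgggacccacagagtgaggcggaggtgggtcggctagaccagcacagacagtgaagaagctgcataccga

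None of these 4 motifs matched in the windows of Dbp or Hlf, which says only that those letters are not in these 300 bases. Of all 32851 windows searched, 7.15% held the E-box, 0.938% the D-box, 0.743% its variant and 2.61% the ROR element. By gene, 10.7% of the 13047 tested genes with a window had an E-box in any window, against 11 of 80 higher genes (13.8%) and 22 of 205 lower genes (10.7%). The D-box was held by 0.851% of the tested genes, by 3 of the 80 higher genes and by 1 of the 205 lower genes. A match is a description of sequence and was not related to binding here.

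The other 14 clock genes of the list of 19 were not called, so the list had 5 higher and 0 lower, with a median log2 difference of 0.12 against 0.00 over all genes. Clock itself was at 105, 110, 97.0 and 95.9 at ZT20 and at 77.8, 67.0, 70.4 and 66.8 at ZT24. The groups did not overlap, but the difference missed the threshold (log2 -0.53 ± 0.16 SE, adjusted p = 0.0654), and it passed with the length correction (adjusted p = 0.0419). Arntl was at 16.7 ± 6.15 and 10.4 ± 1.19 (SD, n = 4; adjusted p = 0.114), and the groups overlapped through the single low ZT20 liver at 7.95. Nfil3, a repressor on D-boxes, was at 18.98 and 13.03 (adjusted p = 0.143). Tef was at 53.8 and 74.5 (adjusted p = 0.191), and Per1 at 5.78 and 9.90 (adjusted p = 0.252). The means of Nr1d1 were 29.1 ± 12.7 at ZT20 and 27.3 ± 12.8 at ZT24 (SD, n = 4; adjusted p = 0.924), where each time had 1 liver far above its other 3, 48.1 and 45.6 against 16.3 to 25.6. Cry1 was at 33.9 at both times (adjusted p = 0.977). None of the remaining members passed, Bhlhe40 with the highest adjusted p at 0.978.

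The same clock genes were then followed in NRF livers. In the hours before the NRF meal, ZT8 to ZT12, Per3 rose from 24.9 ± 7.60 to 56.6 ± 6.08 and Per2 from 19.02 ± 4.98 to 55.2 ± 12.4 (SD, n = 4). The differences between the DRF and NRF changes were 0.16 ± 0.28 SE for Per3 and -0.34 ± 0.37 SE for Per2 on the log2 scale, and neither passed (adjusted p = 0.86 and 0.726). Ciart also rose before the NRF meal (log2 0.73, adjusted p = 1.18e-05), with a difference of -0.10 ± 0.16 SE (adjusted p = 0.845). Dbp and Hlf were not called there (log2 0.15 and 0.21, adjusted p = 0.792 and 0.611). Their differences from the DRF change, 0.82 ± 0.30 SE and 0.57 ± 0.27 SE, missed the threshold (adjusted p = 0.112 and 0.255). Over the same clock hours, ZT20 to ZT24, NRF livers went the other way. Per3 fell from 13.4 ± 3.24 to 3.61 ± 1.501 and Per2 from 68.1 ± 11.5 to 17.7 ± 6.46 (SD, n = 4). The DRF change exceeded that change by 3.02 ± 0.28 SE in Per3 (adjusted p = 1.54e-09) and by 3.09 ± 0.37 SE in Per2 (adjusted p = 5.41e-07). Dbp exceeded it by 1.60 ± 0.30 SE (adjusted p = 0.0013), Hlf by 1.49 ± 0.27 SE (adjusted p = 0.000713) and Ciart by 0.93 ± 0.16 SE (adjusted p = 0.00037). Over the whole list, 8 members were called higher and 4 lower from ZT8 to ZT12 under NRF, against 3.8% and 4.32% of all genes. From ZT20 to ZT24 under NRF, 1 was called higher and 8 lower, against 0.836% and 1.07% of all genes.

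**Figure D2:**
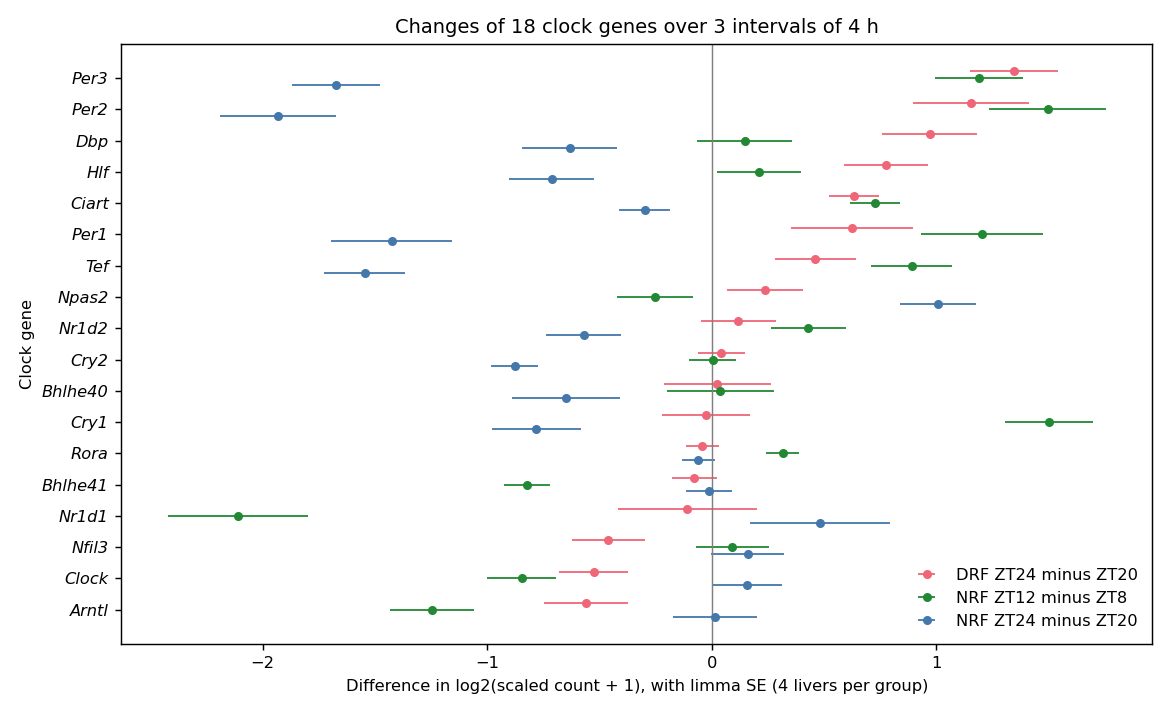
Differences in log2(scaled count + 1) with limma SE for 18 of the 19 clock genes, ordered by the DRF ZT24 minus ZT20 change (red), beside NRF ZT12 minus ZT8 (green) and NRF ZT24 minus ZT20 (blue), 4 livers per group. In Per3, Per2 and Ciart red lies near green and blue is on the other side of 0, while in Nr1d1 green is at -2.11 and red at -0.11.

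The DRF and NRF premeal changes were not alike for all of the clock. The test of the difference passed for 5 of the 19 members, against 3.86% of all genes, and 4 of these members are described here. Nr1d1 fell from 83.5 ± 4.70 to 19.6 ± 8.01 from ZT8 to ZT12 under NRF, so its DRF change was 2.002 ± 0.44 SE above the NRF one (adjusted p = 0.00609). That call was lost on the deposited values (0.52, adjusted p = 0.278) and without replicate 1, 3 or 4 of every group (adjusted p of 0.0506 to 0.0951). Cry1 rose from 16.6 ± 2.01 to 50.1 ± 13.9 under NRF and its DRF change was 1.53 lower on the log2 scale (-1.53 ± 0.28 SE, adjusted p = 0.00102). Rora, an activator on ROR elements, also rose under NRF, and its DRF change was lower by -0.36 ± 0.10 SE (adjusted p = 0.041). It missed the threshold with the length correction (adjusted p = 0.0958), on the deposited values (0.194) and without replicate 3 or 4 of every group (0.156 and 0.334). Bhlhe41 fell under NRF from 1.99 to 0.690 while it was at 0.412 and 0.363 at DRF ZT20 and ZT24 (difference 0.75 ± 0.14 SE, adjusted p = 0.00187), and that call was lost with a pseudocount of 0.1 (adjusted p = 0.0849) and on the deposited values (adjusted p = 0.263). Of these 4, the call of Cry1 held in all 12 of its alternatives.

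Outside the clock list, 7 more genes made up the 10 largest rises. Usp2, a deubiquitinating enzyme with a strong daily rhythm in liver, was at 4.24, 5.13, 8.06 and 10.3 at ZT20 and at 15.97, 13.4, 21.6 and 15.9 at ZT24 (log2 difference 1.21 ± 0.26 SE, adjusted p = 0.00602). Wee1, a kinase that holds back entry into mitosis and a known clock target, was at 7.98, 9.44, 9.05 and 16.1 at ZT20 and at 20.4, 18.8, 26.0 and 24.6 at ZT24 (1.05 ± 0.15 SE, adjusted p = 0.000166). Neither gene overlapped between the times. Both also rose from ZT8 to ZT12 under NRF (log2 1.68 and 1.01) and fell from ZT20 to ZT24 under NRF (-1.63 and -1.26). Their DRF changes exceeded the latter by 2.84 ± 0.36 SE (adjusted p = 2.85e-06) and 2.31 ± 0.22 SE (adjusted p = 1.71e-09). Esrrg, an orphan nuclear receptor of energy metabolism, rose from 7.85 ± 2.97 to 16.1 ± 2.73 (SD, n = 4; adjusted p = 0.00304). Tnfrsf19, a receptor of the TNF family, rose from 18.1 ± 2.82 to 32.7 ± 6.22 (adjusted p = 0.0019), and its change was 1.05 ± 0.22 SE above that before the NRF meal (adjusted p = 0.00336), where it went from 35.4 to 30.3. Dsg1c, a desmosomal cadherin, rose from 16.8 to 33.7 (adjusted p = 0.00936; 0.0594 without DRF ZT20 replicate 3 and 0.0502 without DRF ZT24 replicate 4). Ccdc57 rose from 4.51 ± 0.549 to 8.91 ± 0.537 (adjusted p = 0.000319). The noncoding gene 6030407O03Rik rose from 3.02 to 7.29 (adjusted p = 0.00433).

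Under the same rule on mean and overlap, the largest fall was that of Cyp2b10, a cytochrome P450 known as the main target of the xenobiotic receptor CAR. It was at 412, 647, 1111 and 332 scaled counts at ZT20 and at 254, 136, 262 and 131 at ZT24. No ZT24 liver reached the lowest ZT20 liver, and the ratio of the means was 0.313 (log2 difference -1.59 ± 0.38 SE, adjusted p = 0.0163). The call was lost without DRF ZT20 replicate 2 or 3 or DRF ZT24 replicate 2 or 4, with adjusted p up to 0.128, and reads of Cyp2b10 may be shared with the similar genes Cyp2b9 and Cyp2b13. The gene of CAR itself, Nr1i3, was at 36.6 and 50.7 (adjusted p = 0.0522), with 74.9% of its exon length covered by an exon of the opposite strand (Tomm40l). Cyp2b10 was the 1 call among 21 xenobiotic genes tested, whose median log2 difference was 0.01.

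Insig2, which helps to hold the SREBP factors in the endoplasmic reticulum, was at 68.8, 99.8, 96.6 and 58.4 at ZT20 and at 44.0, 32.5, 34.8 and 31.5 at ZT24. All ZT24 livers were lower (log2 difference -1.13 ± 0.20 SE, adjusted p = 0.000932). It was the 1 call among 25 genes of cholesterol synthesis and uptake, whose median was 0.00. Clpx, the unfolding subunit of the mitochondrial ClpXP protease, was at 310, 368, 336 and 203 at ZT20 and at 187, 140, 136 and 119 at ZT24. The groups did not overlap (log2 difference -1.05 ± 0.15 SE, adjusted p = 0.000166). Cldn1, a tight junction protein, was at 62.0, 59.3, 51.1 and 40.4 at ZT20 and at 31.0, 26.9, 26.6 and 28.2 at ZT24. Its fall (-0.88 ± 0.14 SE, adjusted p = 0.000203) was smaller than that before the NRF meal, where Cldn1 went from 41.9 ± 3.83 to 11.3 ± 1.38 (difference 0.94 ± 0.19 SE, adjusted p = 0.00329).

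The other 6 of the 10 largest falls include genes of membrane traffic and the cytoskeleton. Rab11fip4, an effector of the recycling GTPase Rab11, fell from 16.2 ± 1.88 to 6.48 ± 1.63 (SD, n = 4; adjusted p = 0.00032). Asap2, an Arf GTPase-activating protein, fell from 9.72 ± 2.42 to 4.65 ± 0.601 (adjusted p = 0.000166). Tubb2a, a beta-tubulin whose reads may be shared with Tubb2b, fell from 10.5 ± 1.16 to 5.33 ± 1.04 (adjusted p = 0.00422). Med12l, a relative of a Mediator subunit, fell from 35.9 to 20.3 (adjusted p = 0.00705), with 17.3% of its exon length under an exon of the opposite strand. Epha2, an ephrin receptor, fell from 23.6 ± 13.4 to 10.6 ± 0.836 (adjusted p = 0.0104), where 1 ZT20 liver stood at 42.4 and the lowest at 11.9, just above the highest ZT24 liver at 11.4. Its adjusted p was 0.113 without DRF ZT20 replicate 2 and 0.184 with ZT0 in place of ZT24. Map1lc3b, the autophagosome protein LC3B, fell from 18.5 ± 7.06 to 9.61 ± 1.17 (adjusted p = 0.0419), and that call was lost in 5 of the 8 fits that left out 1 library, with adjusted p up to 0.221. Those libraries were DRF ZT20 replicates 1 and 3 and DRF ZT24 replicates 1, 2 and 4.

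Rab11fip4, Insig2, Clpx and Asap2 also fell from ZT8 to ZT12 under NRF (log2 -1.43, -0.97, -1.19 and -1.28), and the test of the difference from the DRF change passed in none of these 4 (adjusted p = 0.269 or more, differences of -0.17 to 0.38 with SE of 0.18 to 0.28). Over the same hours under NRF they were at 0.18 to 0.44 on the log2 scale without being called, and all 4 differed from the DRF change (adjusted p = 7.24e-06 for Asap2, 1.89e-05 for Clpx, 0.000802 for Rab11fip4 and 0.00627 for Insig2).

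In a longer view of the DRF day, Per3 was at 6.50 ± 1.63 at ZT12 and 5.65 ± 0.990 at ZT16, before the 15.5 and 39.6 of ZT20 and ZT24. The livers taken at ZT0, the same clock time as ZT24 but after the previous night, were at 45.9 ± 1.77. Dbp went from 2.12 ± 0.879 at ZT16 through 15.3 to 30.6, and was at 38.9 ± 2.90 in the ZT0 livers. Clpx went from 511 ± 38.9 at ZT16 through 304 to 145, and was at 111 ± 9.41 in the ZT0 livers. The ZT0 and ZT24 livers were not alike. Against ZT20, 2800 genes were called with ZT0 and 444 with ZT24. Per1 was at 21.7 ± 5.56 in the ZT0 livers and at 9.90 ± 4.05 at ZT24. In these 3 genes, values at ZT20 lay between those of ZT16 and ZT24. Cyp2b10 and Insig2 instead had means at ZT16 (680 ± 303 and 84.7 ± 18.6) close to those at ZT20 (626 ± 350 and 80.9 ± 20.5).

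**Figure D3:**
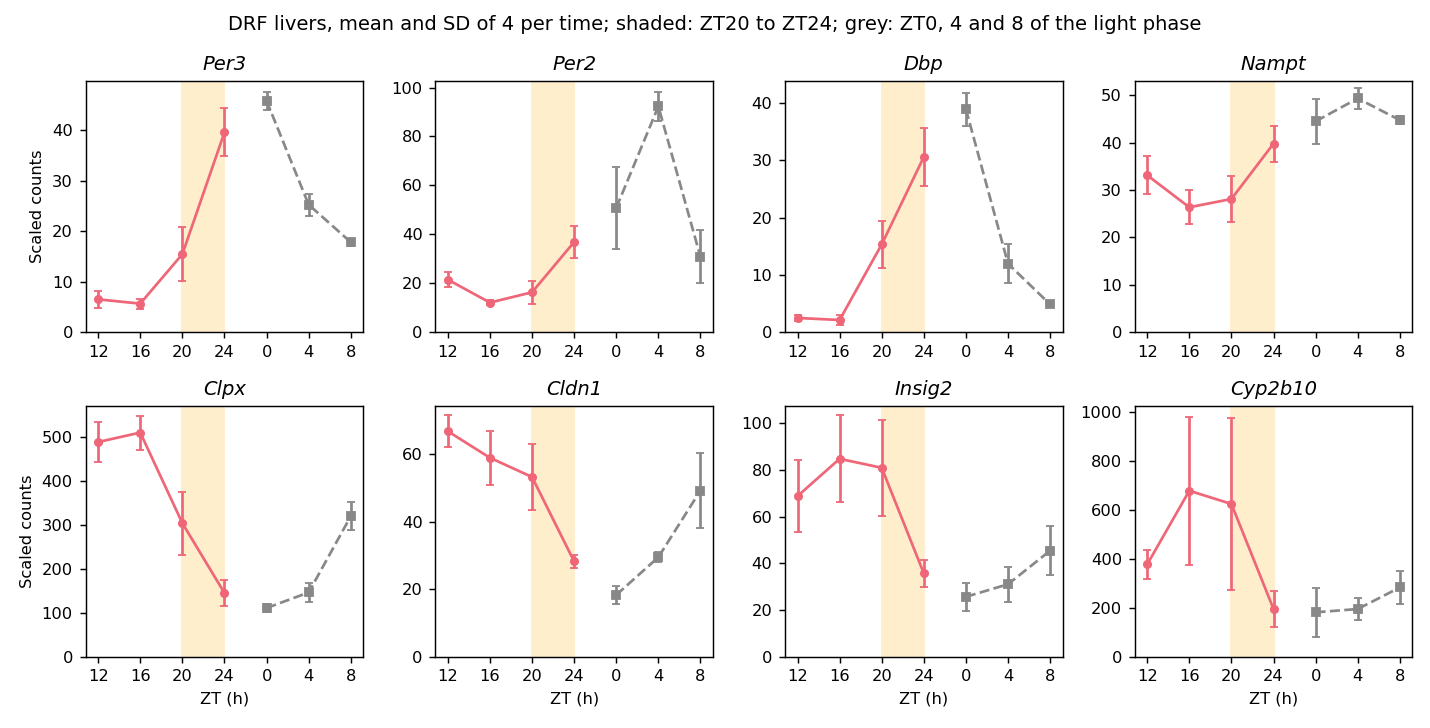
Scaled counts (mean and SD of 4 livers per time, axes from 0) of 8 genes under DRF. The night times ZT12 to ZT24 are in red, with the interval from ZT20 to ZT24 shaded. The times ZT0, ZT4 and ZT8 are in grey, and ZT0 is the same clock time as ZT24 in other livers. Per3, Per2, Dbp and Nampt rose across the shaded interval, and Clpx, Cldn1, Insig2 and Cyp2b10 fell.

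Carbohydrate stores and NAD synthesis held further calls. Gys2, the liver glycogen synthase, was at 338, 402, 360 and 419 at ZT20 and at 534, 506, 543 and 628 at ZT24. All ZT24 livers were higher (log2 difference 0.54 ± 0.11 SE, adjusted p = 0.00573). It was the 1 call among 14 glycogen genes, whose median was -0.08. Nmrk1, a nicotinamide riboside kinase, was at 24.05, 22.8, 22.6 and 32.2 at ZT20 and at 36.2, 51.6, 42.9 and 44.0 at ZT24 (0.76 ± 0.14 SE, adjusted p = 0.00156). Nampt, the rate-limiting enzyme of NAD salvage and a known clock target, was at 29.7, 22.01, 27.1 and 33.6 at ZT20 and at 34.8, 38.9, 43.5 and 41.9 at ZT24 (0.50 ± 0.10 SE, adjusted p = 0.00566; 0.0535 without DRF ZT20 replicate 2). Both groups of livers were fully separate for both genes, the 2 calls among 15 NAD genes. The rise of Nampt was smaller than that before the NRF meal, from 21.9 ± 2.22 to 59.4 ± 5.68 (difference -0.90 ± 0.15 SE, adjusted p = 0.000245). Nmrk1, Nampt and Gys2 fell over the same hours under NRF, and their DRF changes exceeded those by 1.37 ± 0.20 SE (adjusted p = 2.17e-05), 1.04 ± 0.15 SE (adjusted p = 1.47e-05) and 1.37 ± 0.16 SE (adjusted p = 5.41e-07).

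Transporters of the bile canaliculus went in both directions. Abcb11, the bile salt export pump, was at 798, 821, 823 and 804 at ZT20 and at 544, 570, 661 and 619 at ZT24. The ZT20 livers lay within a narrow range, and all ZT24 livers were lower (log2 difference -0.44 ± 0.10 SE, adjusted p = 0.00818). Abcg5, a subunit of the canalicular sterol exporter, was at 111, 129, 107 and 149 at ZT20 and at 217, 150, 196 and 199 at ZT24. All ZT24 livers were higher, the lowest by a narrow margin (0.61 ± 0.14 SE, adjusted p = 0.0118), and the call was lost without DRF ZT20 replicate 1 or 3 or DRF ZT24 replicate 1, with adjusted p up to 0.0732. These were the 2 calls among 14 bile acid genes. In amino acid breakdown 2 of 22 genes were called. Cbs, the first enzyme of transsulfuration, fell from 161 ± 18.1 to 119 ± 5.62 (SD, n = 4; adjusted p = 0.00443). Glud1, the mitochondrial glutamate dehydrogenase, fell from 1409 ± 65.9 to 1078 ± 157 (adjusted p = 0.00859; 0.0877 without DRF ZT24 replicate 2).

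Lists of fatty acid metabolism, of glucose metabolism other than glycogen, and of insulin signalling had no calls. None of 27 genes of fatty acid oxidation and ketogenesis was called (median log2 difference -0.09), nor of 19 of gluconeogenesis (-0.07), 18 of insulin and FOXO signalling (-0.08), 18 of fatty acid and triglyceride synthesis (0.03) or 16 of glycolysis (-0.01). At an unadjusted p under 0.05 the corresponding numbers were 1, 6, 3, 5 and 3, against 3736 of all 25253 genes. In the lists with calls they were 10 of 19 for the clock, 8 of 14 for bile acids and 6 of 14 for glycogen. They were 6 of 22 for amino acid breakdown, 9 of 20 for chaperones, 9 of 20 for autophagy and 6 of 17 for immediate early genes. The rest were 7 of 21 (xenobiotic), 5 of 25 (cholesterol), 2 of 15 (NAD) and 2 of 20 (cell cycle). Ldhd, a D-lactate dehydrogenase, had the smallest adjusted p in gluconeogenesis, at 251 ± 32.3 and 184 ± 21.5 (SD, n = 4; adjusted p = 0.0513), with 42.2% of its exon length under an exon of the opposite strand. Got1 followed in that list, at 352 ± 76.5 and 212 ± 53.5 (adjusted p = 0.0679), and its change was lower than that before the NRF meal by -1.37 ± 0.31 SE (adjusted p = 0.00828; 0.0581 without replicate 4 of every group). In fatty acid oxidation and ketogenesis the smallest adjusted p was that of Fgf21, a fasting hormone of liver. It was at 0.139, 1.06, 0.213 and 0.175 at ZT20, and at 0.0423 to 0.224 at ZT24, so that 1 liver set the higher mean at ZT20 (adjusted p = 0.152). Srebf1, the main activator of lipid synthesis genes, was at 76.6, 55.0, 88.9 and 99.7 at ZT20 and at 134, 101, 146 and 140 at ZT24. These groups did not overlap, but the difference missed the threshold (0.72 ± 0.20 SE, adjusted p = 0.051) and passed with the length correction (adjusted p = 0.0351).

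**Figure D4:**
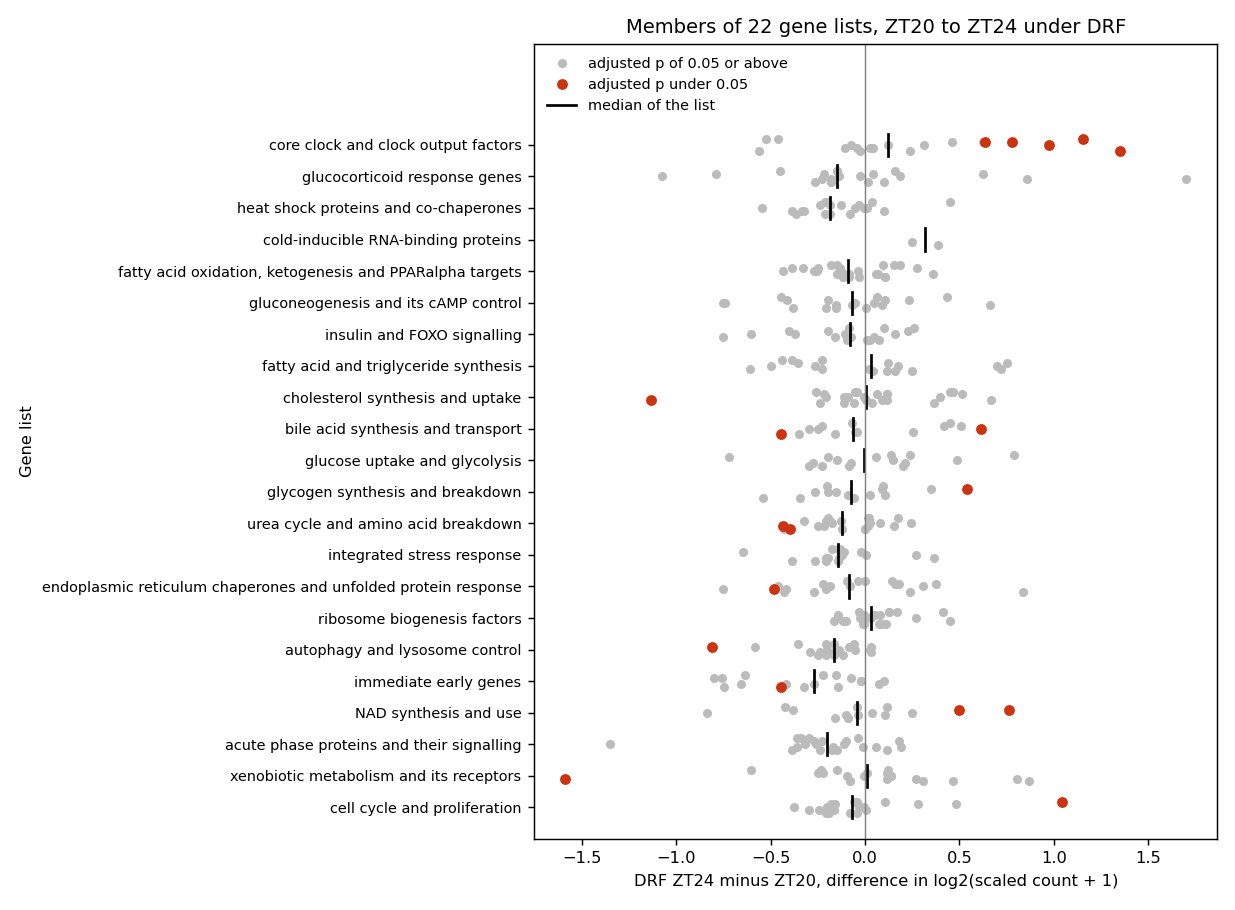
DRF ZT24 minus ZT20 differences in log2(scaled count + 1) for the tested members of 22 gene lists, with called members in red, the others in grey and a black bar at each list's median. Red points right of 0 are 5 clock genes, Abcg5, Gys2, Nmrk1, Nampt and Wee1, and those left of 0 are Insig2, Abcb11, Cbs, Glud1, Calr, Map1lc3b, Rhob and Cyp2b10.

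Genes that respond to stress hormones, heat or cold, and immediate early genes, were looked at in the same way. None of 21 glucocorticoid response genes was called (median -0.15), nor of 20 heat shock genes (-0.19) or of the 2 cold-inducible genes, Cirbp (1.89 and 2.82, adjusted p = 0.341) and Rbm3 (2.30 and 2.95, adjusted p = 0.424). At an unadjusted p under 0.05 there were 6 of the glucocorticoid response genes, 4 of the heat shock genes and 0 of the cold-inducible genes. Over all 25253 genes there were 3736. Dusp1, a phosphatase induced by glucocorticoids, spread from 59.6 to 273 at ZT20 and from 52.1 to 67.8 at ZT24 (adjusted p = 0.113). Under NRF it was at 69.9 and 153 at ZT8 and ZT12, and its DRF change was lower than that by -2.07 ± 0.51 SE (adjusted p = 0.0145; 0.186 and 0.0924 without replicate 2 or 3 of every group). Of 17 immediate early genes, 1 was called and 2 had higher values at ZT24 (median -0.27), where 12811 of all 25253 genes had higher values. Their summed scaled counts were 64.0 to 172 at ZT20 and 59.3 to 79.3 at ZT24. The called one was Rhob, a small GTPase, at 6.67, 7.00, 6.69 and 6.51 at ZT20 and at 4.42, 4.29, 4.51 and 5.56 at ZT24, with no overlap (-0.44 ± 0.10 SE, adjusted p = 0.0134; 0.0662 without DRF ZT24 replicate 2). With ZT0 in place of ZT24 the median of this list was 0.31, and Rhob was not called (adjusted p = 0.944). Jun was at 1.66, 7.05, 2.78 and 2.06 at ZT20 and at 1.20, 1.27, 1.22 and 1.72 at ZT24 (adjusted p = 0.0867), while in the ZT0 livers it was at 7.05 on average.

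Protein handling and secretion gave 1 call in each of 2 lists. Calr, the chaperone calreticulin, fell from 154 ± 10.9 to 111 ± 17.7 (SD, n = 4; adjusted p = 0.0449) among 20 chaperone genes, and 7 of the 8 fits without 1 library lost the call, the exception being the one without DRF ZT24 replicate 3 (adjusted p up to 0.204). Map1lc3b was the 1 of 20 autophagy genes. None of 17 integrated stress response genes was called (median -0.14, 6 at an unadjusted p under 0.05), nor of 25 ribosome biogenesis factors (0.03, 2 of them). Of those 25 factors, 10 were called higher before the NRF meal, where 3.8% of all genes were. None of 22 acute phase genes was called (median -0.20, 9 at an unadjusted p under 0.05, against 3736 of all 25253 genes). Their summed scaled counts were 13589 to 16267 at ZT20 and 10179 to 11232 at ZT24, and Hamp, the iron hormone hepcidin, made part of that gap, at 4782, 1961, 3705 and 3566 at ZT20 and at 1277, 1460, 1560 and 1007 at ZT24. The Hamp groups did not overlap, yet the difference missed the threshold (-1.35 ± 0.40 SE, adjusted p = 0.0629). Of 20 cell cycle genes, Wee1 was the 1 call.

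Markers of other cell types were read beside these results. None of 10 Kupffer cell markers was called (5 at an unadjusted p under 0.05, against 3736 of all 25253 genes). All 10 had lower values at ZT24 (median -0.26). Their summed scaled counts were 749.7 to 1119 at ZT20 and 647 to 779 at ZT24. With ZT0 in place of ZT24 their median was 0.055. Sinusoidal endothelial markers summed to 1047 to 1143 and 949 to 1074 with 0 of 10 called, and stellate cell markers to 899 to 1089.9 and 937 to 1055 with 0 of 10 called. Of 6 cholangiocyte, 10 lymphocyte and 6 erythroid markers 0 were called. Adipocyte and pancreatic markers were near 0, at up to 0.0330 and 3.21 scaled counts in sum over the 1 and 2 markers tested. The part of these cell types in the results was not tested.

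Over all genes, the shares called in the NRF comparisons were as follows. Of the 157 genes higher at DRF ZT24, 49 were also higher from ZT8 to ZT12 under NRF (31.2% of the DRF calls and 5.11% of the 959 NRF calls) and 3 were lower. Of the 287 lower genes, 62 were also lower (21.6% and 5.69% of 1090) and 14 were higher. In that NRF comparison 3.8% of all genes were called higher and 4.32% lower (8.11% in either direction). Over the same clock hours under NRF, 8 of the 157 were higher and 19 lower, and 12 of the 287 were lower and 5 higher, where 0.836% of all genes were called higher and 1.07% lower (1.9% in either direction). The DRF change differed from the ZT8 to ZT12 change of NRF in 976 genes (3.86% of all tested, 1.54% with the DRF change above and 2.32% below) and from the ZT20 to ZT24 change of NRF in 295 (1.17%, 0.55% above and 0.618% below). Among the 444 called genes, these numbers were 53 and 50 of the higher and 98 and 75 of the lower, and 65 and 129 passed neither test.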

How the data were processed

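Gene values of 56 livers (14 groups of 4) were analysed, and the 8 libraries of DRF ZT20 and DRF ZT24 were the subject. Per the labels, ribosomal RNA was depleted, libraries were strand-specific and 150 bp read pairs came from an Illumina NovaSeq. The submitters' processing notes name CASAVA 1.8, featureCounts 1.5.0-p3, mm10 and GRCm38.p6; the aligner, and whether counting used strand, are not given in the sources used here. The authors deposited values named TPM that behave as a score: multiplied by exon length, a value equalled a·ln(1 + f·k), where k was whole and where a and f were shared by all genes of a library. Scaled counts f·k were rebuilt with GENCODE vM21 exon lengths. Among genes held out of the curve's fit, 96.1% to 99.0% of values lay within 0.05 of a whole number (10% by chance). The length was searched on the values for 2087 of 25415 genes, 985 of them on chromosomes 17 to 19, 190 deep genes could not be judged, and 162 without a usable solution were dropped. The recovered totals exceed usual read depths, so they are not called reads and the read depth behind a value is unknown. The authors' transcript and circular RNA tables were not used.

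Differences in log2(scaled count + 1) were fitted with limma 3.58.1 (R 4.3.3, intensity trend, 14 groups, all 56 libraries, no block, no low-value filter) and adjusted by Benjamini-Hochberg over 25253 genes. On simulated data for DRF ZT24 against DRF ZT20 with 25253 genes, 30% of genes changed 1.25-fold, 64% changed 1.5-fold and 96% changed 2-fold were called, and 11 of 156 calls were false. Named genes were the 10 largest rises and falls among called Ensembl genes with a mean of at least 5 and no overlap, all clock genes, and 2 members with the smallest adjusted p of each other list. The members, lists and comparisons were chosen with earlier results of these data known. Same-numbered libraries of DRF ZT20 and ZT24 come from different animals and their deviations correlated between -0.147 and 0.0990, so the numbers were not treated as pairs. Promoters are RefSeq windows (GRCm38.p6). Alternatives were other pseudocounts, a filter, median-of-ratios scaling, a length correction, the deposited values, no trend, a replicate block, fewer libraries and ZT0 in place of ZT24. A few genes that the naming rule selects are not reported here.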

Additional observations from a re-analysis of the deposited data

Results flagged for a closer look

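The tests of the difference between intervals, made across all genes with limma, singled out 17 named genes given here against the NRF change from ZT8 to ZT12. The DRF change was above that change, in log2 units, in 6030407O03Rik (1.11), Tnfrsf19 (1.05), Cldn1 (0.94), Bhlhe41 (0.75), Nr1d1 (2.002) and Cbs (0.41). It was below it in Epha2 (-1.21), Rora (-0.36), Cry1 (-1.53), Dusp1 (-2.07), Ldhd (-0.64), Got1 (-1.37), Sel1l (-0.77), Rhob (-0.63), Jun (-1.11), Nampt (-0.90) and Hamp (-2.01). Of these 17 calls, 4 held in every alternative tried (Tnfrsf19, Cldn1, Cry1 and Nampt). Cbs and Jun passed narrowly, each with an adjusted p of 0.0499, and lost the call in 7 and 6 of 12 alternatives. On the deposited values 7 of the calls were lost (6030407O03Rik, Bhlhe41, Rora, Nr1d1, Ldhd, Cbs and Hamp), and 11 were lost without replicate 3 of every group.

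Against the NRF change from ZT20 to ZT24, 26 named genes given here differed. The DRF change was above it in Per3 (3.02), Usp2 (2.84), Per2 (3.09), Wee1 (2.31), Dsg1c (1.43), Dbp (1.60), Ccdc57 (1.07), Ciart (0.93), Hlf (1.49), Tef (2.01), Per1 (2.05), Cry2 (0.92), Foxo3 (0.68), Gys2 (1.37), Nmrk1 (1.37) and Nampt (1.04). It was below it in Rab11fip4 (-1.54), Insig2 (-1.31), Clpx (-1.46), Asap2 (-1.34), Cldn1 (-1.06), Got1 (-1.17), Elovl5 (-0.80), Abcb11 (-0.89), Cbs (-0.91) and Fgg (-0.74). Of these 26 calls, 18 held in every alternative tried. The others were Dsg1c, Insig2, Hlf, Per1, Got1, Foxo3, Elovl5 and Fgg, with Got1 lost in 5 of 12 alternatives.

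One library stood far from the other 3 of its group by Dixon's criterion for 4 samples in 9 cases, given here with the scaled count of that library: Nr1d2 in DRF ZT24 replicate 2 (150.2), Nr1d1 in DRF ZT20 replicate 2 (48.1), Fgf21 in DRF ZT20 replicate 2 (1.06), Ldhd in DRF ZT20 replicate 4 (203), Foxo3 in DRF ZT24 replicate 3 (144), Sel1l in DRF ZT24 replicate 4 (111), Npm1 in DRF ZT24 replicate 3 (38.9), Jun in DRF ZT24 replicate 4 (1.72) and Nmrk1 in DRF ZT20 replicate 4 (32.2). With 148 groups of 4 examined, chance alone flags about 1 in 20.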

How the results depend on the processing

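The 444 genes called between ZT20 and ZT24 under DRF became 104 with the values as deposited, 23 with the spread taken from the 8 libraries alone and 2800 with the ZT0 livers in place of the ZT24 livers. Leaving out 1 library gave 186 to 512 genes, and leaving out 1 replicate number in all groups gave 157 to 348. Under the length correction 45.5% of the calls were higher at ZT24, against 35.4%, and with the deposited values 52.9%. The 976 genes that differed from the NRF change from ZT8 to ZT12 became 405 with the deposited values and 205 to 1170 without 1 replicate number, and the 295 that differed from the NRF change from ZT20 to ZT24 became 148 and 109 to 235. The other alternatives stayed within 1.5 times of these counts, the replicate block included (454, 949 and 285); same-numbered libraries are different animals, so the block does not stand for pairs. Of the 31 named genes that were called, 19 kept the call in all 8 fits without 1 library. Over the 74 named genes and the 3 comparisons, 1 uncalled value was called in the opposite direction: Jun, at -0.76, went to 0.93 with the ZT0 livers. The difference in the length index on genes with a mean of at least 5 was 0.0406 against 0.0218 and again missed the threshold (exact permutation p = 0.457). In simulated data 64% of 1.5-fold changes were called, so small changes may be missed.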

Other observations

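Several groups of called genes fell outside the lists and were picked after their values were seen, so they are given as values with no test of the group. Of 20 Hnrnp genes, which encode nuclear RNA-binding proteins, 3 were higher at ZT24 and 0 lower, with a median log2 difference of 0.19. Over all genes tested, 0.622% were called higher and 1.14% lower. Hnrnpd was at 4.18, 3.75, 3.93 and 4.13 scaled counts at ZT20 and at 7.08, 6.85, 6.44 and 6.05 at ZT24 (0.60 ± 0.12 SE, adjusted p = 0.00304). Hnrnpm rose from 14.99 ± 3.52 to 24.7 ± 0.855 (SD, n = 4; adjusted p = 0.0344) and Hnrnpdl from 4.08 to 5.97 (adjusted p = 0.0163). Neither was called with ZT0 in place of ZT24 (adjusted p = 0.14 and 0.0551). Of 10 Srsf splicing factor genes, Srsf2 was higher, from 7.16 ± 0.792 to 9.88 ± 0.254 (adjusted p = 0.00288), and 0 were lower. Sf3b1, a subunit of the U2 particle of the spliceosome, rose from 78.3 to 100.01 (adjusted p = 0.000202). It also rose under NRF, from ZT8 to ZT12 (log2 0.19, adjusted p = 0.016) and from ZT20 to ZT24 (log2 0.22, adjusted p = 0.02). Exons on the opposite strand cover 25.3% of Srsf2, and an exon on the same strand covers 14.7% of Hnrnpm.

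On the falling side, 2 of 12 subunits of the oligosaccharyltransferase, which adds sugar chains to secreted proteins, were lower (median -0.13). The share called lower over all genes was 1.14%. Rpn2 fell from 169 ± 9.43 to 131 ± 9.81 (SD, n = 4; adjusted p = 0.00732) and Ddost from 57.6 to 44.4 (adjusted p = 0.0271). P4hb, a protein disulfide isomerase, fell from 974 to 794 (adjusted p = 0.0413). Of 15 tubulin genes, 2 were lower and 13 had negative differences (median -0.32), where 12811 of all 25253 genes had positive ones. Tubb5 fell from 16.9 to 12.2 (adjusted p = 0.0353). Fgfr4 and Klb, the receptor and co-receptor of the gut hormone FGF15, fell from 31.8 ± 2.59 to 23.3 ± 3.51 (adjusted p = 0.0023) and from 113 ± 4.003 to 81.6 ± 17.7 (adjusted p = 0.0423). Cebpa, a hepatocyte transcription factor, fell from 98.6 to 74.9 (adjusted p = 0.00566). Lgr5, a Wnt pathway receptor of pericentral hepatocytes, rose from 18.7 ± 5.63 to 31.8 ± 4.39 (adjusted p = 0.018). With ZT0 in place of ZT24 the calls of Ddost, P4hb, Tubb5, Cebpa and Lgr5 were lost (adjusted p = 0.187, 0.303, 0.051, 0.76 and 0.331). Klb lost its call with the length correction (adjusted p = 0.0581). Over the same hours under NRF, Cebpa also fell (log2 -0.34, adjusted p = 0.018) and Lgr5 also rose (log2 1.03, adjusted p = 0.000696).

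The called gene with the lowest log2 difference was Gm47287, at 855, 878, 0.0019 and 173 scaled counts at ZT20 and at 0.00156 to 0.00224 at ZT24. The groups overlapped, its whole exon length lies within the exon of Rn7s1, and it was left out of the named genes by the rule on overlap.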
